A study of Mus musculus with 3 samples.

Results

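Lysosomal hydrolases and their activators are mostly soluble proteins that serve the breakdown of protein, glycan and lipid inside the lysosome. The group comprised 42 genes named by symbol, and a region belonged to a gene where the authors' annotated table gave that symbol. Of 21887 coding genes of the RefSeq annotation, 42 were therefore described. They were placed in broad substrate groups, for glycan and lipid genes mostly by the material that accumulates when the enzyme is lost. Ctsa was placed with the protein genes and Ppt1 with the lipid genes, and other placements are possible. This gave 13 genes of protein breakdown, 14 of glycan breakdown, 12 of lipid breakdown and 3 others. Chromatin bound by the transcription factor Runx1 had been measured by chromatin immunoprecipitation and sequencing of spinal cord cells. The 3 replicates formed 1 group of male C57BL/6J mice aged 8 to 10 weeks, for which the labels name no transgene or treatment. Each immunoprecipitation pooled chromatin of 10 cords (about 10 µg) and used 9 µg of a rabbit polyclonal antibody. Cells were not sorted by type, so binding in 1 cell type and in another cannot be told apart, and no second group was available for a comparison between conditions.

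Most hydrolases of this group are made in the endoplasmic reticulum, tagged with mannose 6-phosphate in the Golgi and carried to the acidic lysosome, where many are activated by cleavage. The activators, such as the saposins cut from prosaposin, lift lipids out of membranes for the enzymes. Many lysosomal genes carry the E-box element TCACGTGA in their promoters, which factors of the MiT/TFE family (Tfeb, Tfe3 and Mitf) bind. Runx proteins bind the core TGTGGT. In microglia and other phagocytes these enzymes degrade engulfed material, including myelin.

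The replicates held 451, 1641 and 13194 regions in replicates 1, 2 and 3, and the sources used here give no read totals. Of 10 oligodendrocyte markers, 0, 8 and 10 had a region in replicates 1, 2 and 3. Of 10 microglial markers, 0, 1 and 2 did, and of 10 endothelial markers 0 did in each. Of 10 neuronal markers 1, 2 and 9 had a region, and of 10 astrocyte markers 0, 1 and 5. Over coding genes the shares were 1.49%, 5.10% and 31.0%. A region marks immunoprecipitated chromatin and does not measure expression.

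Promoters of Ctsa, Hexa, Ctsd and Gla are shown because the first pair overlapped, at least in part, regions of all 3 replicates and because Ctsa, Ctsd and Gla were the members whose promoter held TCACGTGA. Each runs 5′ to 3′ on the gene's strand over 300 bases, from 250 before to 50 after a RefSeq start (GRCm38.p6). Capitals mark an E-box (TCACGTGA, TCACGTG or the core CACGTG, read on both strands and overlapping each other) or the Runx cores TGTGGT and TGCGGT on either strand. The Runx core marked in Hexa lay inside the region of replicate 3 and outside those of replicates 1 and 2.
Ctsa, chr2:164833523-164833822, plus strand: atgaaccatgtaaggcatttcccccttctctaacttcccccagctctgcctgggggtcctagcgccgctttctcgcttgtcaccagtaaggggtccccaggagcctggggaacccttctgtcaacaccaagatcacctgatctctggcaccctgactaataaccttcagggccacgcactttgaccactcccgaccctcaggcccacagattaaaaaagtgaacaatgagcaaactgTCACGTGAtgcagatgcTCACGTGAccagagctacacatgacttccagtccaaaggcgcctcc
Hexa, chr9:59539290-59539589, plus strand: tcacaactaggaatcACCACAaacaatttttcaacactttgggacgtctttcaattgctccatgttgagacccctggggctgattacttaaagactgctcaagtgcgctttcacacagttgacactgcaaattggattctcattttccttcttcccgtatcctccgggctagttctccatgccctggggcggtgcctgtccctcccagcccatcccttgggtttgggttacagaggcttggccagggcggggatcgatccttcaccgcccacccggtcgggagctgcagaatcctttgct
Ctsd, chr7:142387778-142388077, minus strand: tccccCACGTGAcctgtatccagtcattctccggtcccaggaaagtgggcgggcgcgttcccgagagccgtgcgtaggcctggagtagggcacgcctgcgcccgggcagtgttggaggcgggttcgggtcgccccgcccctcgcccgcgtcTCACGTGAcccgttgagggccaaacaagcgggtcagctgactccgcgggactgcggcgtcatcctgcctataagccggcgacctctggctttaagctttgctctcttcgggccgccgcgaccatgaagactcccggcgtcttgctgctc
Gla, chrX:134600956-134601255, minus strand: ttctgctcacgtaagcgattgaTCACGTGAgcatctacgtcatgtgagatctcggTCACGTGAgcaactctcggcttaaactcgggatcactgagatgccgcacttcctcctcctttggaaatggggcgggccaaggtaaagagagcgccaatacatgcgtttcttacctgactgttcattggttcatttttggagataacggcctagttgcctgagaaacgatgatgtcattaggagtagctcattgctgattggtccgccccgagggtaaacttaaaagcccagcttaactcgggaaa

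The share of members with a region was above that of coding genes in each replicate, and 5 members recurred. In replicate 1, 3 of 42 members had a region (7.14%, 95% Wilson interval 2.46 to 19.0), against 1.49% of coding genes. In replicate 2 the count was 5 of 42 (11.9%, interval 5.19 to 25.0), against 5.10% of coding genes. In replicate 3 it was 21 of 42 (50%, interval 35.5 to 64.5), against 31.0%. Ctsa, Ctsb, Ctsd, Lgmn and Hexa had regions in at least 2 replicates (11.9% of members, against 5.37% of coding genes). Ctsa and Hexa had them in all 3 (4.76%, interval 1.32 to 15.8, against 0.822%), and they alone remained among the recurring members when replicate 2 or replicate 3 was left out. A further 16 members had a region in replicate 3 alone, Idua had one in replicate 1 alone, and 20 had none. These shares are descriptions with no test, and the intervals treat genes as independent.

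The lists differ greatly in length, so each list was also reduced to its 451 most significant regions by q value. Of the 42 members, 3, 4 and 3 were then found in replicates 1, 2 and 3, against 1.49%, 1.47% and 1.51% of coding genes. They were Ctsa and Hexa in each replicate, Idua in replicate 1, Ctsb in replicate 2 and Ctsd in replicates 2 and 3. In at least 2 replicates there were 3 members, against 0.941% of coding genes. The fold over background, as the authors deposited it, compares the fragment pileup at a region's strongest summit with the local background of the peak caller. Among regions with a fold of 5 or more, replicates 1, 2 and 3 had 3, 2 and 10 members, against 0.704%, 0.877% and 8.36% of coding genes. Ctsa and Hexa were the 2 members with such a region in at least 2 replicates, against 1.03%.

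**Figure D1:**
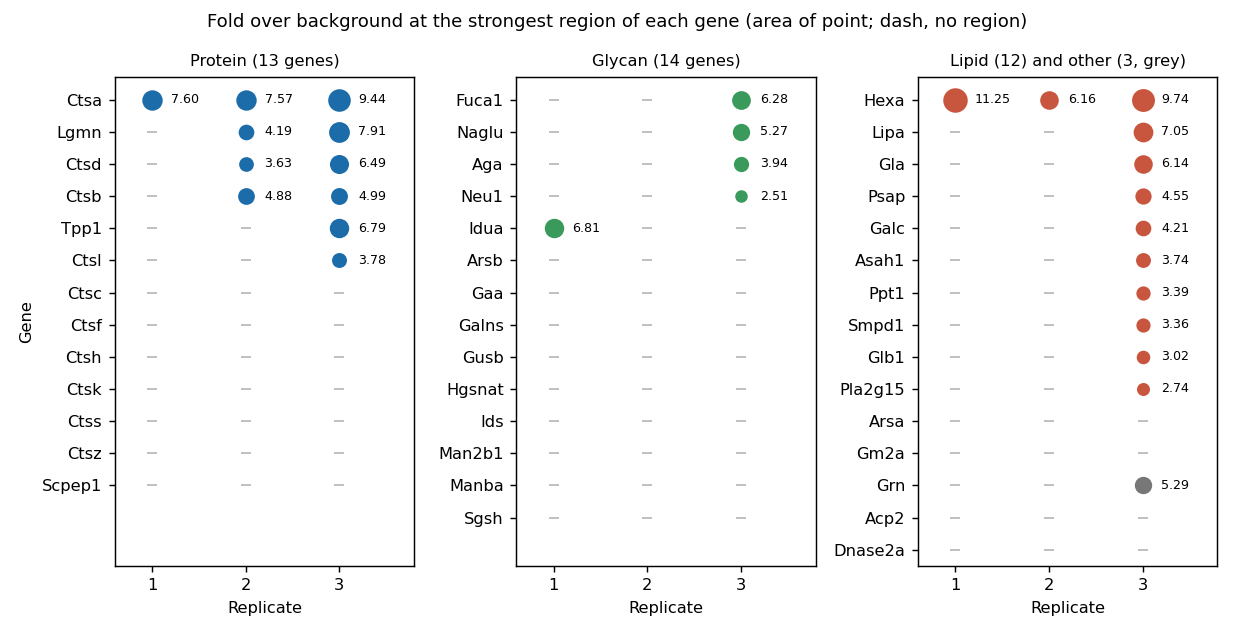
Fold over background at the strongest region of each of the 42 genes (rows) in replicates 1 to 3 (horizontal axis), in panels by substrate. Point area is proportional to fold, the fold is printed beside it, and a dash marks no assigned region. Ctsa and Hexa fill all 3 columns, and 16 genes have a point in replicate 3 alone.

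Among the 13 genes of protein breakdown, 1, 4 and 6 had a region in replicates 1, 2 and 3, against 1.49%, 5.10% and 31.0% of coding genes. Ctsa (ENSMUSG00000017760) encodes cathepsin A, a serine carboxypeptidase that also protects the sialidase and beta-galactosidase of the lysosome. In replicates 1, 2 and 3 the region of Ctsa had folds of 7.60, 7.57 and 9.44, for which 33, 35 and 93 fragments piled up at the summit. The regions lay on chromosome 2 (164833610 to 164834018, 164833600 to 164834061 and 164833442 to 164834160, GRCm38) and covered a transcript start. Their strongest summits were 48, 85 and 30 bp downstream of a RefSeq start. The 95% counting intervals of the folds overlapped in all 3 replicates (5.30 to 10.6, 5.34 to 10.5 and 7.64 to 11.5). Ranked by fold within each list, the regions stood at the 90.9, 98.8 and 98.6 percentiles. A start of Neurl2, which encodes a neuralized-family ubiquitin ligase component, lay within 1 kb of each region, so the regions could belong to either gene.

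Ctsb and Ctsd encode cathepsins B and D, a cysteine and an aspartic protease. The Ctsb region on chromosome 14 (63122389 to 63122834 in replicate 2, 63122222 to 63122814 in replicate 3) had folds of 4.88 and 4.99, from 30 and 44 fragments. Its summits were 42 bp apart, and its counting intervals overlapped (3.34 to 6.90 and 3.66 to 6.66). Both ranked in the upper part of their lists, at the 80.6 and 79.2 percentiles. The Ctsd region on chromosome 7 (142387708 to 142388081 in replicate 2, 142387558 to 142388283 in replicate 3) had folds of 3.63 and 6.49, from 37 and 79 fragments. The Ctsd summits were 8 bp apart, at positions -128 and -136 bp from the RefSeq start along the gene's strand. The counting intervals for Ctsd did not overlap (2.58 to 4.97 and 5.16 to 8.07), and its rank moved between the 30.0 percentile of replicate 2 and the 92.9 percentile of replicate 3.

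Lgmn, which encodes legumain, an asparaginyl endopeptidase that activates cathepsins, had the most regions of any member. Replicate 2 had 1 region with a fold of 4.19, on chromosome 12 (102437949 to 102438349), in the authors' promoter class of 1 to 2 kb. Replicate 3 had 4 regions, and the one that overlapped replicate 2 had a fold of 3.70 (102437838 to 102438676). The strongest region of replicate 3 lay in intron 1 (102419487 to 102420337) with a fold of 7.91, and its promoter region (102439129 to 102440074) had a fold of 6.62. The fold of replicate 2 ranked at the 58.7 percentile and those of these 3 regions of replicate 3 at the 45.8, 96.8 and 93.5 percentiles, with pileups of 17 fragments in replicate 2 and 21, 44 and 37 in replicate 3. The strongest regions of replicates 2 and 3 therefore lay in different places, and the 2 regions that did overlap had summits 298 bp apart. At a q of 1e-05 or lower the replicate 2 region was lost, and Lgmn was then found in replicate 3 alone.

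**Figure D2:**
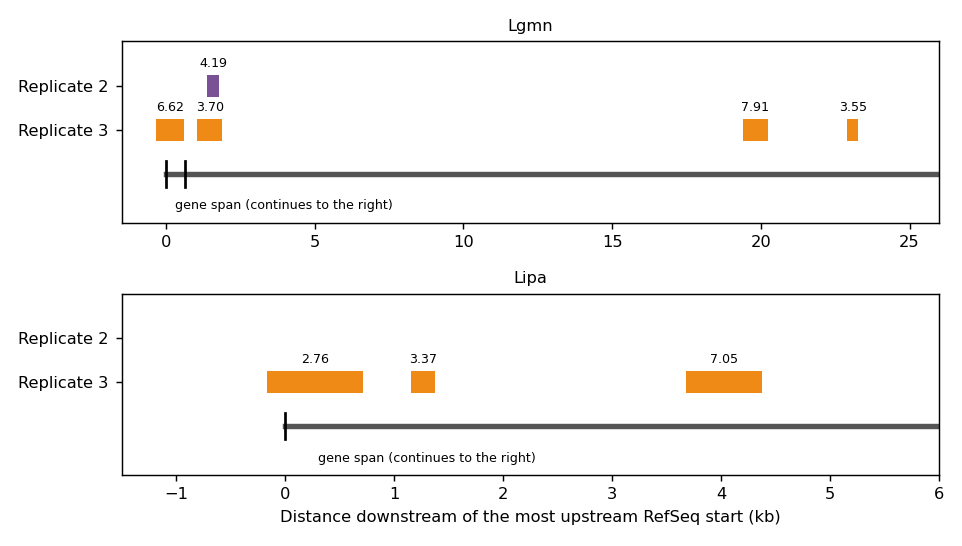
Regions assigned to Lgmn and Lipa in replicates 2 and 3 (bars, with fold above), by distance in kb downstream of the most upstream RefSeq start. Short vertical ticks mark RefSeq starts and the grey line the gene span. Lgmn has 4 bars in replicate 3 and 1 in replicate 2, and Lipa has 3 bars, all in replicate 3.

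The other protein genes found were Tpp1 and Ctsl, both in replicate 3 alone. Tpp1, which encodes tripeptidyl peptidase 1, an enzyme lost in a childhood neuronal ceroid lipofuscinosis, had a fold of 6.79 from 57 fragments on chromosome 7 (105751993 to 105752328), at the 94.1 percentile of its list. Ctsl, encoding cathepsin L, had a fold of 3.78 (chromosome 13, 64370389 to 64370781). Ctsc, Ctsf, Ctsh, Ctsk, Ctss, Ctsz and Scpep1 had no region in any replicate. Cells were not sorted, so neither these absences nor the regions of Ctsa, Ctsb, Ctsd, Ctsl, Lgmn and Tpp1 can be assigned to a cell type.

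Genes of lipid breakdown had the highest share in replicate 3, with 10 of 12 (83.3%), against 6 of 13 protein genes (46.2%), 4 of 14 glycan genes (28.6%) and 31.0% of coding genes. Grouped instead by the bond that is cut, which moves Hexa, Gla, Glb1 and Galc to the glycan genes, 6 of 8 lipid genes and 8 of 18 glycan genes (44.4%) had one. The order did not hold for strong regions. At a fold of 5 or more in replicate 3, the lipid genes left were Gla, Hexa and Lipa. The protein genes left were Ctsa, Ctsd, Lgmn and Tpp1, against 8.36% of coding genes. By stored material, the median strongest fold in replicate 3 was 3.98 for lipid, 6.64 for protein and 4.61 for glycan genes. In replicates 1 and 2, Hexa was the lipid gene found. Hexa (ENSMUSG00000025232) encodes the alpha subunit of beta-hexosaminidase, which degrades GM2 ganglioside. For Hexa the folds were 11.3, 6.16 and 9.74 in replicates 1, 2 and 3, with pileups of 45, 28 and 96 fragments. Its regions lay on chromosome 9 (59539423 to 59539916, 59539427 to 59539850 and 59539154 to 59540109). The summits were 153, 95 and 139 bp downstream of the RefSeq start, and the folds ranked at the 98.2, 95.1 and 98.8 percentiles of their lists. The counting intervals of replicates 1 and 2 overlapped (8.28 to 15.0 and 4.17 to 8.81), as did each with that of replicate 3 (7.91 to 11.9).

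**Figure D3:**
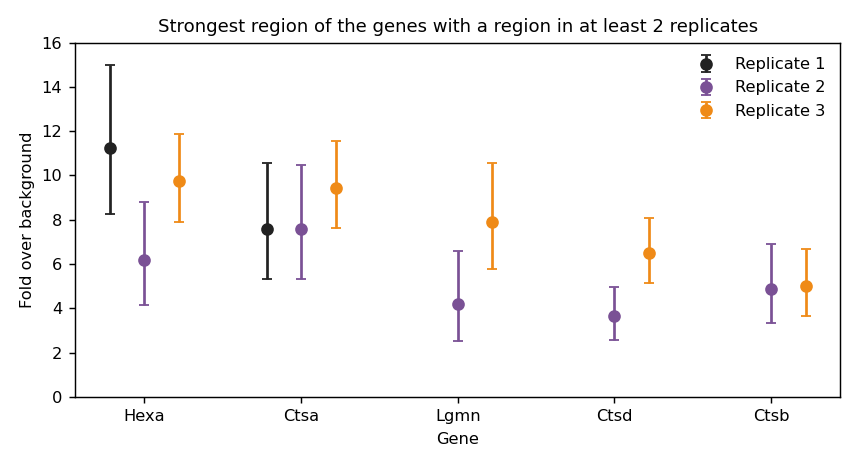
Fold over background of the strongest region (vertical axis, from 0) of the 5 genes found in at least 2 replicates, by replicate. Bars are 95% counting intervals from the summit pileup with the background held fixed, and for Lgmn the points of replicates 2 and 3 are different regions. The intervals of replicates 2 and 3 overlap for Hexa, Ctsa, Lgmn and Ctsb and not for Ctsd.

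The 9 other lipid genes had a region in replicate 3 alone, with folds between 2.74 and 7.05 at their strongest region. Lipa, which encodes lysosomal acid lipase, had 3 regions on chromosome 19. The strongest of these lay in exon 3 of 10 (34523101 to 34523794, fold 7.05) and not at the start, where the fold was 2.76. Gla, encoding alpha-galactosidase A, had a fold of 6.14 on chromosome X (134601050 to 134601986), within 1 kb of a start of Hnrnph2. Psap, encoding prosaposin, the precursor of the saposin activators, had a promoter region with a fold of 4.55 (chromosome 10, 60277354 to 60278265). It also had a distal region with a fold of 3.16, at an authors' distance of -14769 bp (60262489 to 60262858).

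Galc, whose product removes galactose from the myelin lipid galactosylceramide, had a fold of 4.21 (chromosome 12, 98258994 to 98259404). The acid ceramidase gene Asah1 had a fold of 3.74 (chromosome 8, 41374568 to 41375055), from 31 fragments. The palmitoyl-protein thioesterase gene Ppt1 had 3.39 (chromosome 4, 122836014 to 122836448), from 28 fragments. The acid sphingomyelinase gene Smpd1 had 3.36 (chromosome 7, 105554115 to 105554697), from 21 fragments, within 1 kb of a start of Gm39063. All 3 lay below the median fold of replicate 3, which was 3.81. The beta-galactosidase gene Glb1 had a fold of 3.02 (chromosome 9, 114400869 to 114401241) and the lysosomal phospholipase A2 gene Pla2g15 had 2.74 (chromosome 8, 106150081 to 106150341). These last 2 ranked at the 15.7 and 5.60 percentiles of replicate 3, near the bottom of its list. Arsa, whose product removes sulfate from the myelin lipid sulfatide, and the GM2 activator gene Gm2a had no assigned region.

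Among the 14 glycan genes, 1, 0 and 4 had a region in replicates 1, 2 and 3, and none recurred by the authors' assignment. The 4 of 14 in replicate 3 (28.6%) were close to the 31.0% of coding genes, and at 5.37% of coding genes a count of 0 recurring among 14 is near the background as well. In replicate 3, Fuca1 (alpha-fucosidase) had a fold of 6.28, Naglu (alpha-N-acetylglucosaminidase of heparan sulfate) 5.27, Aga (aspartylglucosaminidase) 3.94 and Neu1 (sialidase) 2.51. The Naglu region lay at its promoter (chromosome 11, 101069826 to 101070434), those of Aga on chromosome 8 (53511692 to 53511986) and of Neu1 on chromosome 17 (34931226 to 34931536). The Fuca1 region (chromosome 4, 135934984 to 135935772) had an authors' distance of -872 bp to an internal transcript, and its summit was 14537 bp downstream of the RefSeq start. The Neu1 fold ranked at the 0.978 percentile of its list. Arsb, Gaa, Galns, Gusb, Hgsnat, Ids, Man2b1, Manba and Sgsh had no assigned region.

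The Idua region of replicate 1 shows how the assignment can move a gene in or out. Idua encodes alpha-iduronidase, which degrades heparan and dermatan sulfate, and its region on chromosome 5 (108669104 to 108669417) had a fold of 6.81 from 40 fragments. The summit lay 8915 bp downstream of the RefSeq start of Idua. In replicate 3 an overlapping region, with its summit 9 bp away and a fold of 5.58, was assigned to the diacylglycerol kinase gene Dgkq. The authors' promoter class within 1 kb held both regions. Inside the span of Idua there was also a region assigned to the sulfate transporter gene Slc26a1, with folds of 5.84 in replicate 2 and 5.32 in replicate 3. When every region within a RefSeq gene span or 1 kb of it was counted, Idua had regions in all 3 replicates. With regions within 1 kb of the RefSeq start alone, Idua had none.

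Of the 3 other members, Grn, which encodes progranulin, the precursor of lysosomal granulins, had a fold of 5.29 in replicate 3 (chromosome 11, 102430119 to 102430685). The acid phosphatase gene Acp2 and the acid DNase gene Dnase2a had no assigned region.

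**Figure D4:**
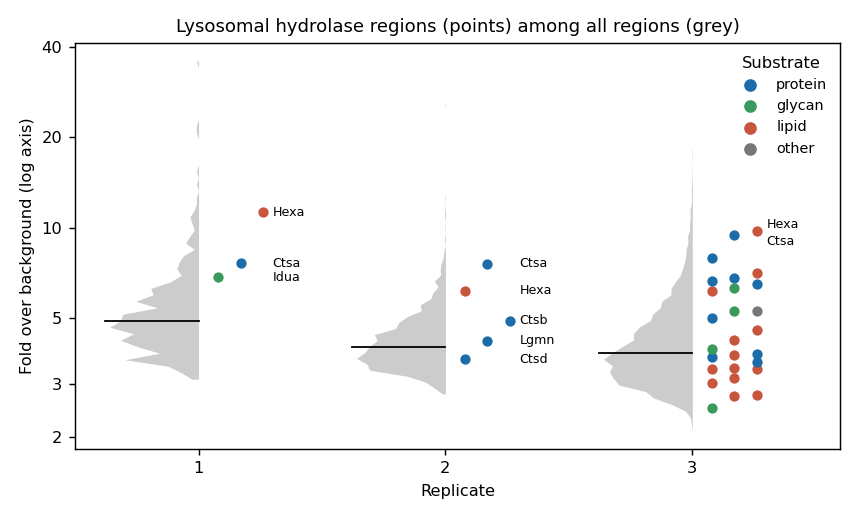
Fold over background (log axis) of the regions of the 42 genes (points, coloured by substrate) beside all regions of the same replicate (grey profile, scaled to its own maximum; the line marks its median). Points of replicate 1 lie above its median of 4.86, and those of replicate 3 spread between 2.51 and 9.74 around a median of 3.81 for all regions.

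The median fold of the member regions was above that of all regions in each replicate. The median fold was 7.60 over 3 member regions of replicate 1, against 4.86 over all 451 regions. In replicate 2 it was 4.88 over 5 member regions, against 4.01 over 1641, and in replicate 3 it was 4.21 over 27, against 3.81 over 13194. The median percentile of the member regions within their lists was 90.9, 80.6 and 62.9 in replicates 1, 2 and 3. In replicate 2, Lgmn at the 58.7 and Ctsd at the 30.0 percentile ranked well below the other 3. In replicate 3, the 5 members also found in replicate 1 or 2 by the same assignment had strongest folds of 4.99 to 9.74 (median 7.91). The strongest region of Lgmn was not the shared one, and the regions that were shared had folds of 3.70 to 9.74 (median 6.49). The 16 members found in replicate 3 alone had 2.51 to 7.05 (median 4.07), so the ranges overlapped.

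The authors' promoter class within 1 kb held 3 of 3, 4 of 5 and 21 of 27 member regions in replicates 1, 2 and 3 (100%, 80.0% and 77.8%), against 82.7%, 71.4% and 62.6% of all regions. Of the 35 member regions in the 3 replicates, 25 had their strongest summit within 250 bp of a RefSeq start. Among the others were regions of Asah1, Fuca1 and Idua that the authors class as promoter, with summits 22833, 14537 and 8915 bp downstream of the RefSeq start. The authors' distances of these regions to a transcript start were 0, -872 and 0 bp. For Asah1 the upstream end of the RefSeq gene span served as the start, so its distance depends on that choice. Asah1, Fuca1 and Idua were lost where regions had to lie within 1 kb of the RefSeq start. The exceptions in replicate 3 also included the intronic regions of Lgmn, the exonic region of Lipa and the distal region of Psap. Of the 3 member regions of replicate 1, 2 were shared with replicate 2 and 3 with replicate 3, against 55.2% and 94.7% of all its regions. All 5 member regions of replicate 2 were shared with replicate 3, against 92.1%. Of the 27 member regions of replicate 3, 5 (18.5%) were shared with either of the other lists, against 11.7% of all 13194.

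The E-box element was in a higher share of the members' promoters than of all promoters, which is a description with no test. The element was chosen because it is known from promoters of lysosomal genes, so its higher share here is no independent finding. RefSeq promoter windows were at hand for 36 of the 42 genes (39 windows), and Aga, Asah1, Ctsb, Ctsh, Galns and Hgsnat were not included. TCACGTGA was in 3 of 39 member windows (7.69%), against 0.974% of all 32851 windows. Its 7-letter part TCACGTG, which includes those matches, was in 9 member windows (23.1%), against 3.77%, and the core CACGTG in 11 (28.2%), against 7.15%. TGTGGT was in 6 member windows (15.4%), against 16.8%, and TGCGGT in 0, against 6.45%. Of the windows of coding genes alone, 1.23% held TCACGTGA, 4.39% TCACGTG, 7.84% CACGTG, 15.0% TGTGGT and 7.44% TGCGGT, so the members' share of TGTGGT lay between that of coding and that of all windows. The 9 genes with TCACGTG were Arsa, Ctsa, Ctsd, Gaa, Gla, Glb1, Lgmn, Naglu and Sgsh. Of these, Arsa, Gaa and Sgsh had no assigned region.

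In the Ctsa window shown above the 2 TCACGTGA matches began at -13 and 4 bp from the start. Relative to the strongest summit, with negative positions upstream, their centres were at -58 and -40 bp for replicate 1. For replicate 2 the centres were at -94 and -78 bp, and for replicate 3 they were at -40 and -22 bp. The Ctsd match was at 32 and 40 bp in replicates 2 and 3, and the 2 Gla matches were at -42 and -8 bp in replicate 3. In replicate 3, 7 of 10 CACGTG matches of members inside regions lay within 100 bp of the strongest summit, against 63.8% of 898 such matches over all windows. For TGTGGT it was 1 of 4 member matches, against 39.9% of 546. Hexa, with the highest fold of the group in replicates 1 and 3, had no CACGTG in its window, and its TGTGGT match lay at -372 bp in replicate 3. That window ended at position 59539589 of chromosome 9, before the Hexa summits at 59539693, 59539635 and 59539679 in replicates 1, 2 and 3. Sequence at those summits was therefore not read, and neither motif was shown to be absent there. Windows of other members, such as Galc, Ppt1, Psap and Smpd1, also ended before the strongest summit of their promoter region in replicate 3.

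**Figure D5:**
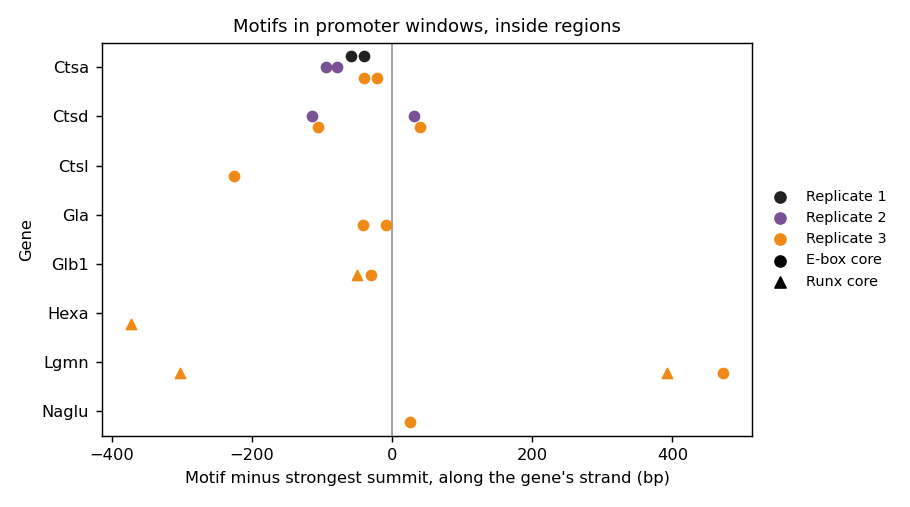
Distance in bp between motifs of the members' promoter windows and the strongest summit of the region that holds them, along the gene's strand, by gene and replicate. Circles are the E-box core CACGTG and triangles the Runx core TGTGGT. The Ctsa and Gla circles lie within 100 bp of the summit in each replicate that has them, and the Hexa triangle lies at -372 bp. The Hexa window ends before the Hexa summits, so motifs at those summits were not read.

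Over all genes, promoter windows touched by a region held TCACGTGA and TGCGGT in a higher share than the other windows, and TGTGGT in a lower share. TCACGTGA was in 20.3% of the 300 windows touched by regions of replicate 1, against 0.796% of the others. It was in 7.87% of 877 windows of replicate 2, against 0.785%, and in 3.19% of 6454 windows of replicate 3, against 0.432%. TGTGGT was in 10.0%, 10.1% and 10.9% of the touched windows, against 16.8%, 16.9% and 18.2% of the others, and TGCGGT in 17.0%, 13.7% and 11.7%, against 6.36%, 6.26% and 5.18%. Among the 17 member windows touched in replicate 3, 3 held TCACGTGA and 4 held TGTGGT. Of the 22 member windows not touched, 0 and 2 did. The shares were not adjusted for the base composition of the windows. A match is a stretch of letters and not a shown binding site.

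Other soluble lysosomal genes and genes that deliver hydrolases also had regions. Of 24 such genes, 5, 1 and 18 had a region in replicates 1, 2 and 3, and 5 had one in at least 2 replicates, against 1.49%, 5.10%, 31.0% and 5.37% of coding genes. The 1 of 24 in replicate 2 was not above the share of coding genes. Sumf1, which encodes the enzyme that activates sulfatases, was found in each of the 3 replicates at its promoter, where the folds were 5.13, 3.75 and 4.22. Dpp7, a dipeptidyl peptidase gene, had folds of 4.53 and 10.1 in replicates 1 and 3. Igf2r, which encodes the large mannose 6-phosphate receptor, had 6.48 and 4.31, and Nagpa, which encodes the enzyme that uncovers the mannose 6-phosphate tag, had 5.14 and 4.72. Among the factors that bind the E-box element, Tfeb and Mitf had regions in replicate 3 alone, with folds of 4.97 and 8.20 at their strongest regions, and Tfe3 had none. The authors classed this Tfeb region as promoter within 1 kb and this Mitf region as distal intergenic.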

How the data were processed

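Runx1 ChIP-seq of spinal cord cells was analysed from 3 replicates of 1 group, so no condition was compared and no test was run. The labels do not say how animals were shared among replicates, and the tissue label of replicate 3 holds an antibody description, so its group came from its title. MACS2 2.1.2, Bowtie2, Picard 2.18.26, SAMtools 1.9, FastQC, Trimmomatic 0.38 and GRCm38 are listed in the submitters' processing notes. The authors' deposited peak lists, called per replicate, hold a score, the fold over background as a ratio, and −log10 of p and of q for each summit. The lowest −log10 q of a region's strongest summit was 2.01, 2.00 and 2.00. Their annotated tables give a class, a gene and a distance in bp for each region. Caller parameters and any control library: not given in the sources used here.

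Each region took the fold of its strongest summit, which ranks regions within 1 list. Percentiles are ranks among all regions of a replicate. Starts are given from 1. Pileup and background were solved from fold and −log10 p under a Poisson model, within 0.001 in −log10 p for 100% of summits, and the solver was tested on simulated data. The lowest pileups were 13, 13 and 12 fragments. Exact 95% Poisson intervals of pileups and Wilson intervals of shares cover counting error only, and read depth is otherwise unknown. Gene starts, spans and promoters came from RefSeq GRCm38.p6, and for Aga, Asah1 and Ctsb the strand came from the authors' tables. For Ctsh, Galns and Hgsnat either end of the span was taken. Overlap meant at least 1 bp.

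The members and lists were chosen with earlier results of these data known. Every member is named, with other genes limited to listed lysosomal and marker genes and those starting within 1 kb of a member region. Outside that rule, the values of Tfeb and Mitf and the genes given regions inside or beside a member (Dgkq, Slc26a1, C230037L18Rik, Trappc2l, 1110012L19Rik and Cdh23) were chosen after their values were seen. The values of 1 other listed lysosomal gene are not reported here. Computing used scipy 1.17.1, pandas 2.3.3, numpy 2.4.6 and matplotlib 3.10.9 under Python 3.11.15.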

Additional observations from a re-analysis of the deposited data

How the results depend on the processing

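Of the alternative values, 48 stayed within 1.5 times the main count or within the spread between replicates, and 11 moved. The number of members with a region in at least 2 replicates was 5 and became 2 at a fold of 5 or more and 3 with equal numbers of regions. Leaving out 1 replicate gave 2 to 5 such members: 5 without replicate 1, and Ctsa and Hexa alone without replicate 2 or without replicate 3. At a fold of 5 or more, replicate 2 had 2 members and replicate 3 had 10, and with equal numbers of regions replicate 3 had 3. These alternatives keep fewer regions. Requiring 50% of both regions to overlap left 3 of the 5 member regions of replicate 2 overlapping replicate 3. The number of member genes with the E-box element was 3 for TCACGTGA, 9 for TCACGTG and 11 for CACGTG, since shorter letters match more often. Grouping by the bond cut, which moves Hexa, Gla, Glb1 and Galc to glycans, put the share of glycan genes with a region in replicate 3 at 44.4%, against 28.6%, while lipid genes had 75.0%, against 83.3%. Ctsa and Hexa had a region in all 3 replicates under each alternative. No paired analysis was possible because the series has 1 group. A gene without a region was not shown to lack binding, since the lists hold only regions with a q of 0.01 or lower. The lowest folds in the lists of replicates 1, 2 and 3 were 3.04, 2.72 and 2.05.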

Other observations

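Members without an assigned region had 3 regions nearby that the authors gave to another gene. Arsa had a region in replicate 3 (fold 2.55) within 1 kb of its RefSeq start, assigned to C230037L18Rik. Galns had a region in replicate 2 (fold 3.52) within 1 kb of an end of its span, assigned to Trappc2l. Ids had a region in replicate 3 (fold 3.14) within its span or 1 kb of it, assigned to 1110012L19Rik. A region assigned to Cdh23 in replicate 3 (fold 3.20) lay within the span of Psap.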
